A study of Mus musculus with 6 samples.

Results

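The comparison described here sets mouse CD8+ T cells stimulated through the OT-I receptor with the N4 peptide against naive cells of the same receptor. OT-I is a transgenic T cell receptor that recognises an ovalbumin fragment on a mouse class I molecule, and N4 names the strong agonist form of that fragment. The comparison takes in 4 of the 6 libraries of the series: 2 of OT-I CD8+ T cells taken 4 days after the N4 peptide with antibodies to OX40 and 4-1BB, which are costimulatory receptors, and 2 of naive OT-I CD8+ T cells. The remaining 2 libraries, from cells given the T4 peptide, entered the fit through the filter on low counts, the scaling and the shared estimate of the spread, and no value of theirs is compared here. All cells carried the OT-I genotype and were labelled as CD8+ T cells of spleen and lymph nodes, while the design text names spleens alone for the stimulated cells. The labels give no peptide or antibody for the naive cells, so an effect of the peptide and an effect of the antibodies cannot be told apart. They give no sorting step and no age or sex of the mice. Nor do they say that replicates came from separate mice, so each p-value measures how far these libraries scatter, and that scatter may be technical. The genes described were those of at least 1 CPM in both N4 or in both naive libraries, where CPM is a gene's count relative to its library's total after TMM scaling in edgeR, which gave 12843 of 55414 genes.

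A resting CD8 T cell is small, rarely divides and keeps its growth in check with a set of transcriptional brakes. When its receptor meets a potent peptide together with costimulation, it enters the cell cycle, divides repeatedly and acquires granzymes, interferon gamma and a changed set of surface receptors. Interleukin 2 drives much of that expansion through a receptor whose alpha chain is induced on activated cells.

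The labelled cell type was checked first. The 16 genes of the T cell identity list (receptor constant regions, CD3 and CD8 chains, proximal kinases and adaptors) summed to 11870 and 14310 CPM in N4, against 11840 and 14870 CPM in naive cells. Abundant members carry that sum, such as Trbc2 at 4656 and 5465 CPM in N4, against 3935 and 5274 CPM. Of the 16 genes 11 had a negative log2 fold change and 5 a positive one (median -0.43). Cd8a stood at 84.4 and 72.2 CPM against 183 and 106 CPM, and Cd3e at 151 and 113 CPM against 334 and 155 CPM, neither called. Cd4, the defining marker of helper T cells, was listed at 0 in both N4 libraries and in naive replicate 1, and stood at 0.108 CPM in naive replicate 2. Markers of other cells were at higher levels in the naive libraries: of 100 tested markers in 12 lists, 68 were lower in N4 and 1 was higher. Neutrophil markers summed to 2490 and 25430 CPM in the naive libraries, in replicate 2 above the T cell sum of that library. Xist, which coats the silenced X chromosome of females, stood at 0.0453 and 7.09 CPM in N4, against 20.3 and 31.5 CPM in naive libraries, while Ddx3y of the Y chromosome was between 4.41 and 7.68 CPM in all 4. The part of the sex of the mice in other results was not tested. The 4 libraries held 269033066 to 335968843 estimated counts, and log2(CPM + 1) correlated across genes at 0.987 within the N4 pair and 0.97 within the naive pair.

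Of 23003 genes that passed the filter on low counts, 1120 rose in N4 (4.87%) and 1652 fell (7.18%), at an adjusted p under 0.05 in edgeR's quasi-likelihood test, which makes 12.1% called in either direction. The N4 and naive values of each called gene did not overlap, but neither did those of 12747 of all tested genes. Decreases were the larger: the median log2 fold change was 2.11 among higher genes and -3.38 among lower ones, with 109 genes at 5 or above and 628 at -5 or below. All 12843 genes of at least 1 CPM were tested. Among them, 1021 had reached 1 CPM only in N4 (223 higher), 1466 only in naive cells (606 lower) and 10356 in both (802 higher and 714 lower). A gene that entered through a single group had to be high there, so the first 2 counts are a description. Scaling by library totals in place of TMM moved the median over all tested genes from -0.0884 to -0.649 on the log2 scale and the split of calls to 695 higher and 1777 lower. The medians of the 25 pathway lists were lower by 0.36 to 0.68 on that scale. Without N4 replicate 1 there were 959 calls and without N4 replicate 2 there were 639, against 2458 and 4487 without naive replicate 1 or 2 and 1393 and 1278 without T4 replicate 1 or 2. Of 154 called genes named by rule, 66 kept their call with each library left out in turn, while 84 lost it when N4 replicate 2 was left out, 65 with N4 replicate 1 left out, 40 with T4 replicate 2, 32 with T4 replicate 1, 13 with naive replicate 1 and 2 with naive replicate 2 left out.

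**Figure D1:**
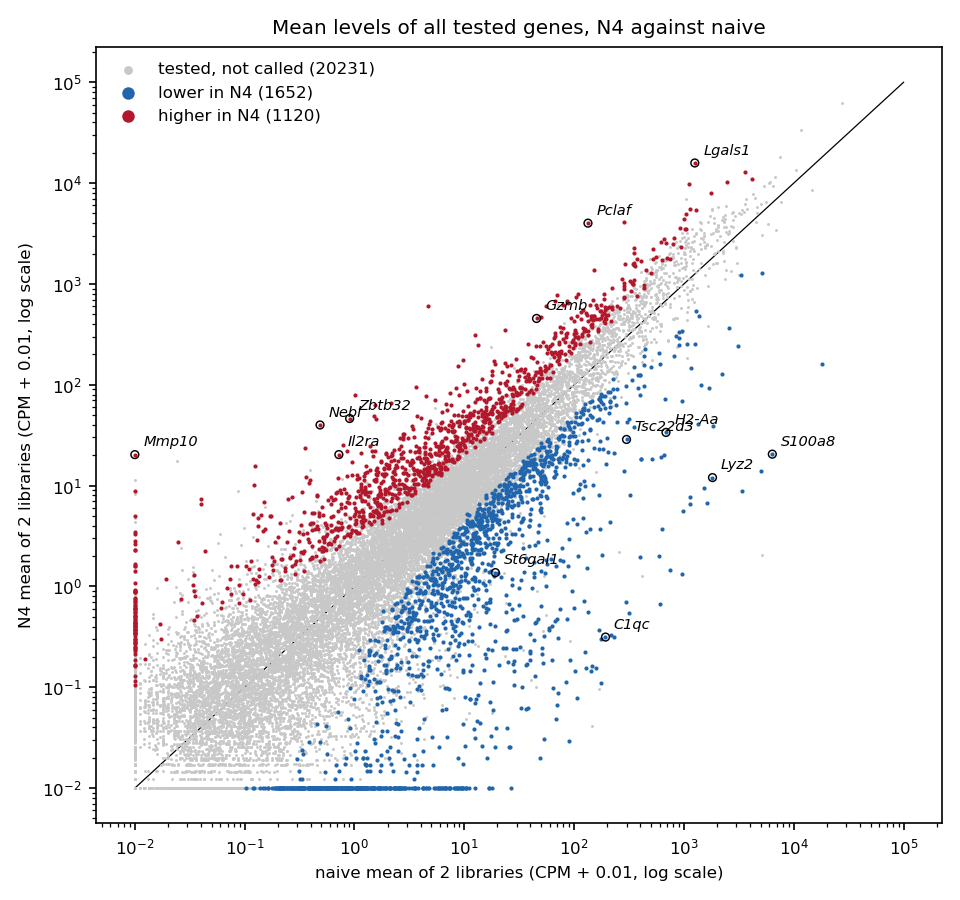
Mean level of each of 23003 tested genes in naive cells (x axis) and in N4 cells (y axis), in TMM-scaled CPM with 0.01 added, on log axes. Red points are the 1120 genes called higher, blue points the 1652 called lower and grey points those not called. Pclaf and Lgals1 stand above the line of equal levels among abundant genes, Lyz2 and S100a8 stand below it, and the points along the left and lower edges are genes listed at 0 in both libraries of a group.

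Increases were frequent among genes of cell division. Of 30 mitosis genes 23 rose and none fell (median log2 fold change 2.51), and of 29 DNA replication genes 17 rose and none fell (median 1.58), where 4.87% of all genes rose. The promoter stretches of 4 of these genes are shown here because the lists are known for short elements near their starts. They come from RefSeq windows on GRCm38.p6 that run from 250 bases before to 50 bases after the start of each gene. The genes are those of smallest p among the called members with a match, and each stretch is read along the gene, 5′ to 3′. In each stretch capitals mark 1 match: the letters TTTGAA of the cell cycle homology region in mitosis genes (TTCAAA on the other strand) and TTCCCGC of an E2F site in replication genes (GCGGGAA on the other strand). The Mki67 stretch holds the letters once more, in lower case. The marked matches end 93, 14, 115 and 9 bases before the start.
Mki67, chr7:135716432-135716517, minus strand: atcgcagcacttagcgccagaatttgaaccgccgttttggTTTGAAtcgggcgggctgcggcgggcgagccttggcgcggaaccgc
Kif11, chr19:37376323-37376381, plus strand: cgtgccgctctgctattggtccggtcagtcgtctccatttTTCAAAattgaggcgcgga
Pola1, chrX:93632230-93632316, minus strand: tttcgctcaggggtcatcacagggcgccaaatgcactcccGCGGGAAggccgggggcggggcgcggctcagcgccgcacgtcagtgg
Prim1, chr10:128015160-128015214, plus strand: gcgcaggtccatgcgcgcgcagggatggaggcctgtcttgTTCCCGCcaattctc

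Over both strands, TTTGAA was in 17 of 23 mitosis promoters with a window (73.9%), against 20.2% of the promoters of 27025 genes. The letters CCAAT were in 82.6% of the mitosis promoters and 41.1% of all. The E2F letters were in 11 of 23 replication promoters (47.8%) and 5.29% of all, while 1 mitosis promoter (4.35%) held them. Among replication genes, 4 of 12 called promoters and 7 of 11 promoters of genes not called held TTCCCGC. For mitosis genes, TTTGAA was in 13 of 19 called promoters and 4 of 4 promoters of genes not called. Of 17 promoters in the sterol list, 16 (94.1%) held CCAAT and 1 (5.88%) held TCACNCCAC, the letters of a sterol response element, against 1.44% of all. A match says only that the letters stand in the window.

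**Figure D2:**
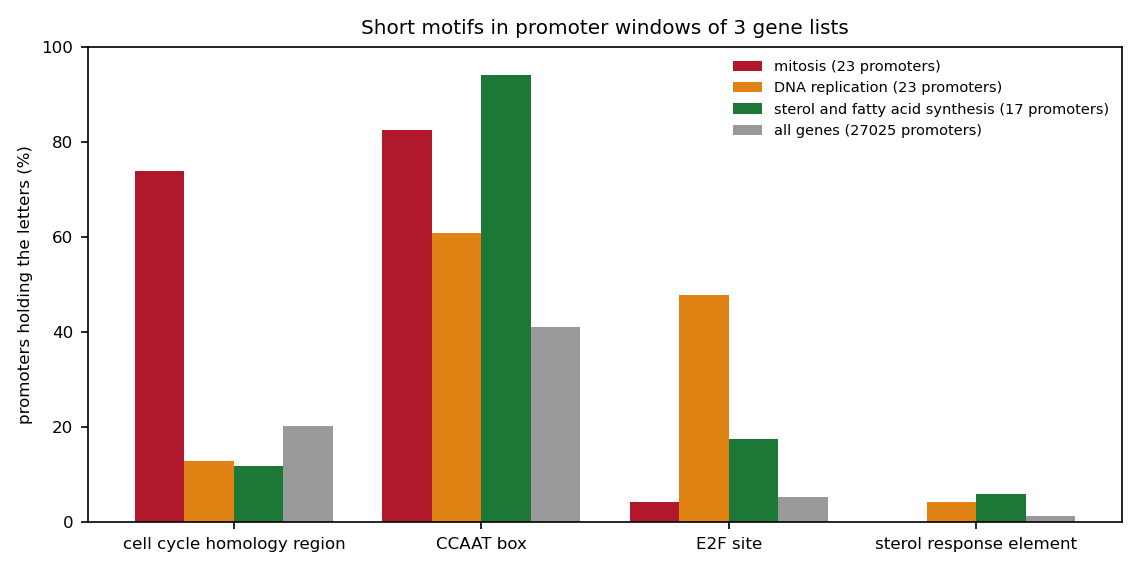
Share of promoter windows that hold each set of letters (y axis, percent), for the mitosis, replication and sterol lists and for all 27025 genes. The cell cycle homology letters reach 73.9% in mitosis promoters and the E2F letters 47.8% in replication promoters, against 20.2% and 5.29% of all promoters.

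Mki67, which encodes the proliferation antigen Ki-67 (chr7:135689784-135716361 on GRCm38), measured 32.4 and 35 CPM in N4, against 4.37 and 4.62 CPM in naive libraries. Both pairs were tight and far apart, with a log2 fold change of 2.91 (SE 0.25) and an edgeR adjusted p of 0.0071. Kif11, the motor that separates spindle poles (chr19:37376403-37421859), measured 18.8 and 20.3 CPM against 2.41 and 1.83 CPM. Cenpf, a kinetochore protein gene, stood at 22.1 and 22.1 CPM against 3.04 and 3.31 CPM, and Ccna2, the cyclin of S phase and mitotic entry, at 61.2 and 50.4 CPM against 8.06 and 5.72 CPM. These 4 genes kept their calls with each library left out in turn. Birc5, the survivin gene, rose from 99.4 and 206 to 1207 and 1560 CPM. The 7 mitosis genes that were not called (Foxm1, Kif23, Plk1, Ndc80, Cdc20, Kif20a and Smc4) had log2 fold changes from 0.33 for the condensin gene Smc4 to 2.91 for the mitotic kinase Plk1. Without N4 replicate 1 the list held 17 calls and without N4 replicate 2 it held 15.

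In the replication list the increases ran from licensing factors to polymerases. Pole, the catalytic subunit of the leading-strand polymerase, measured 14.7 and 15.7 CPM in N4, against 2.07 and 2.81 CPM in naive cells (edgeR adjusted p = 0.0094). Ccne2, a cyclin of the G1 to S transition, rose from 2.56 and 4.82 to 41.5 and 55.8 CPM, 13.2-fold. Pola1, the polymerase subunit that extends primers, rose from 3 and 2.95 to 14.5 and 20.6 CPM, and Prim1, the primase subunit that makes those primers, from 10.4 and 8.89 to 28.9 and 27.7 CPM. Pcna, the sliding clamp, stood at 752 and 845 CPM against 156 and 219.6 CPM (edgeR adjusted p = 0.013), a call that ended without N4 replicate 2 (edgeR adjusted p = 0.058). The helicase genes Mcm2, Mcm3, Mcm4, Mcm5 and Mcm6 rose with log2 fold changes of 1.58 to 2.09, and Mcm7 was at 1.25 (edgeR adjusted p = 0.072). Cdt1, a licensing factor, stood at 14.2 and 8.86 CPM against 10.3 and 9.18 CPM, with overlapping groups. The list held 5 calls without N4 replicate 1, 5 without N4 replicate 2 and 6 with scaling by library totals. Between the naive libraries Plk1 (9.29 and 1.68 CPM) and the replication factor gene Mcm10 (0.669 and 3.08 CPM) differed more than 4-fold, and with 1 CPM added no gene of either division list did.

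Genes of nucleotide supply and of DNA repair rose in part. Of 27 nucleotide and one-carbon genes 8 rose and none fell (median 0.94). Rrm2, a subunit of the ribonucleotide reductase that makes deoxynucleotides, stood at 118 and 100.4 CPM in N4, against 21.8 and 13.3 CPM in naive cells, 6.2-fold higher (edgeR adjusted p = 0.011). Rrm1, of the same enzyme, rose 5.19-fold, and Psat1, an enzyme of serine synthesis, rose 4.17-fold. The calls of these 3 ended with scaling by library totals (edgeR adjusted p = 0.061 to 0.076), where the list held 3. The purine enzyme genes Gart, at 24.4 and 17.4 CPM against 20.4 and 14.4 CPM, and Atic, at 12.3 and 11.7 CPM against 16.4 and 6.85 CPM, had overlapping groups. The list held 6 calls without N4 replicate 1 and 4 without N4 replicate 2.

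Of 20 DNA repair genes 8 rose and none fell (median 1.55), and the 20 had N4 values above both naive values. Of all 23003 tested genes, 12747 had groups that did not overlap, in either direction. Fancd2 of the Fanconi pathway rose from 0.695 and 0.428 to 6.08 and 8.16 CPM (log2 fold change 3.66 with SE 0.44, edgeR adjusted p = 0.011). Rad51ap1, a recombination factor, rose from 1.65 and 2.41 to 11.2 and 7.79 CPM and Chek1, a checkpoint kinase, from 2.98 and 6.7 to 21.2 and 19.8 CPM. The calls of Rad51ap1 and Chek1 ended without N4 replicate 1, as without N4 replicate 2 (edgeR adjusted p = 0.051 to 0.1), and the list then held 2 calls each time.

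Among 25 chromatin and DNA methylation genes 8 rose and 1 fell, where 4.87% and 7.18% of all tested genes did. The median of 0.45 turned to -0.16 with scaling by library totals. Uhrf1, which guides maintenance methylation, stood at 41.3 and 33.9 CPM against 3.58 and 5.7 CPM, and the remodeller gene Hells at 38.9 and 33.3 CPM against 5.41 and 6.83 CPM. Ezh2, the methyltransferase of Polycomb, rose 4.86-fold, and Hmgb2, an abundant architectural protein gene, rose from 307 and 392 to 1543 and 1525 CPM. Adjusted p-values of these 4 in edgeR were 0.0086 to 0.011. The single decrease was Kdm5b, a histone demethylase gene, from 10.3 and 7.34 to 2.86 and 1.39 CPM. Dnmt1, the maintenance methyltransferase, rose 2.48-fold, while the de novo enzyme Dnmt3a stood at 7.27 and 5.13 CPM against 5.94 and 3.69 CPM and was not called. The Hmgb2 call ended without N4 replicate 2 (edgeR adjusted p = 0.051), where the list held 3 increases, against 5 without N4 replicate 1.

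**Figure D3:**
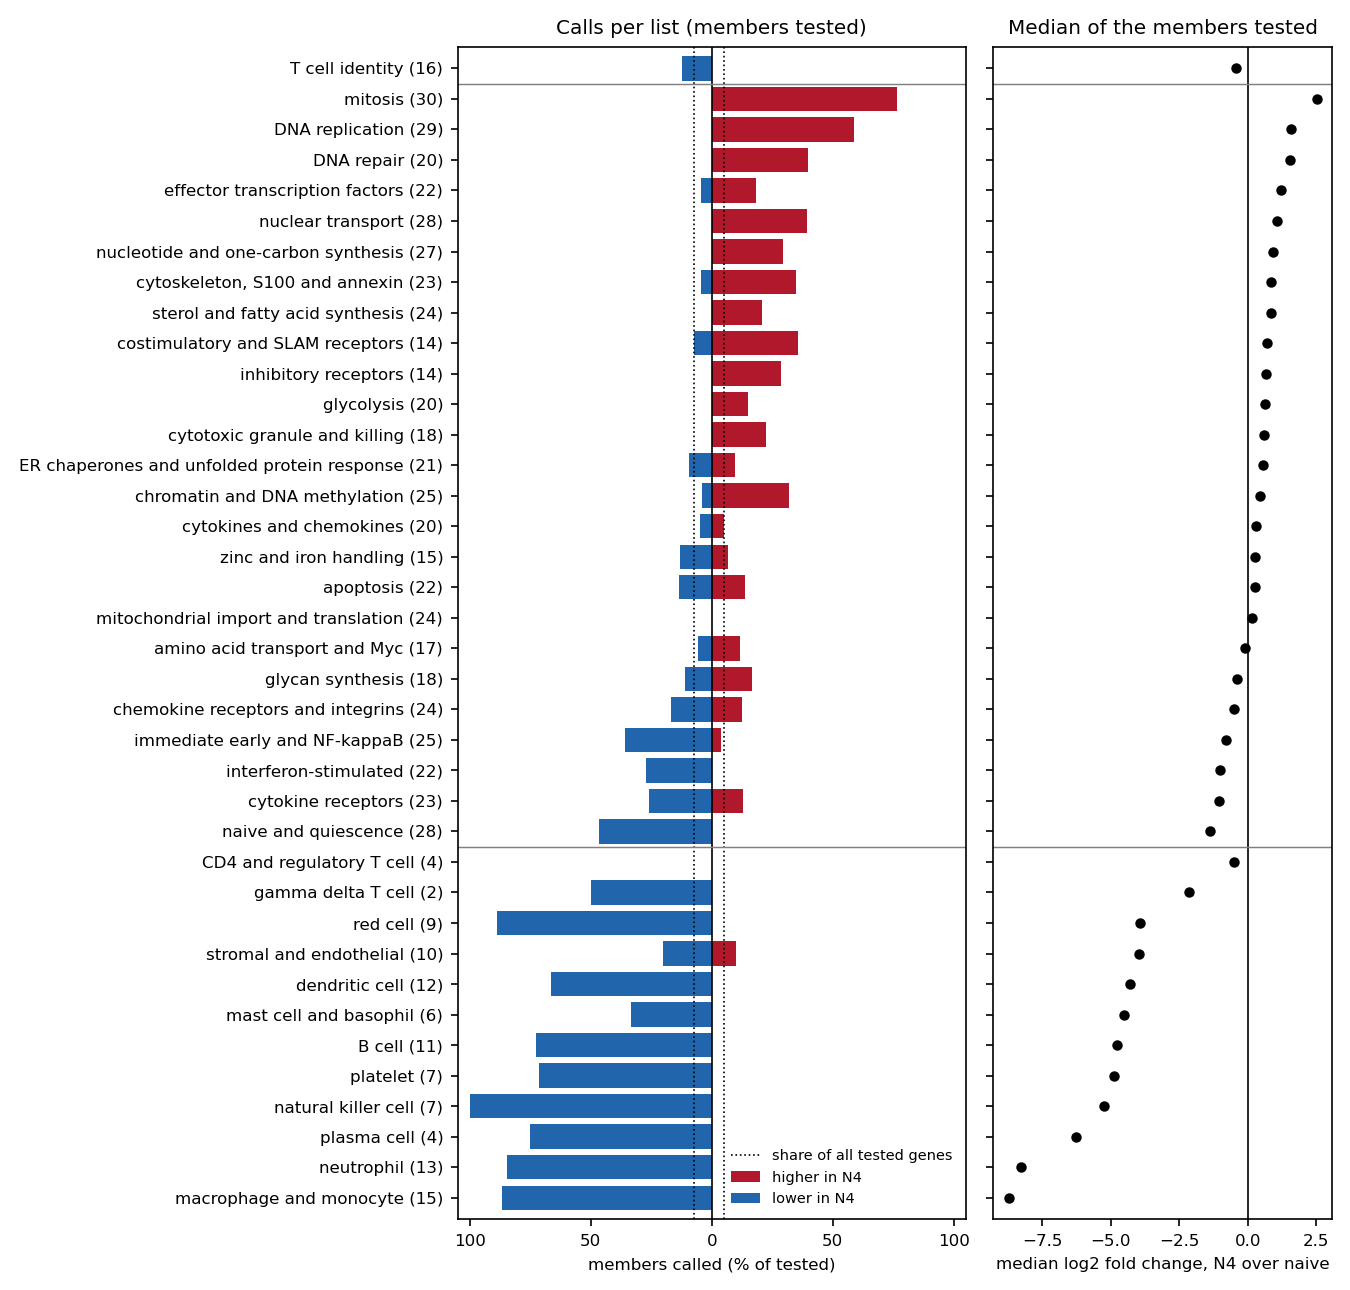
Left, share of tested members of each list called higher (red, to the right) or lower (blue, to the left) in N4, with the number tested in parentheses and dotted lines at 4.87% and 7.18%, the shares of all tested genes. Right, median log2 fold change of the tested members. With TMM scaling and all 6 libraries in the fit, as drawn here, mitosis (23 of 30) and DNA replication (17 of 29) reach farthest to the right, and the marker lists of other cells in the lower block extend mostly to the left.

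Of 28 nuclear transport genes 11 rose and none fell, and the 28 had a positive log2 fold change (median 1.08). Ipo5, an importin, stood at 21.5 and 22.3 CPM in N4, against 4.92 and 6.79 CPM in naive cells (edgeR adjusted p = 0.014), and Cse1l, which recycles importin alpha, at 29.2 and 28 CPM against 9.04 and 10.3 CPM. Ran, the small GTPase that gives transport its direction, rose 2.39-fold to 1718 and 1838 CPM. In edgeR, none of the 28 was called without N4 replicate 1 or without N4 replicate 2, and 3 were with scaling by library totals.

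In the sterol and fatty acid list 5 of 24 rose and none fell (median 0.84). Idi1, the isomerase that makes an isoprenoid building block, rose from 5.26 and 7.3 to 48 and 59.8 CPM (edgeR adjusted p = 0.0086) and was called with each library left out in turn. Scd2, a desaturase gene, rose 3.81-fold, Sc5d 2.4-fold and the epoxidase gene Sqle 3.27-fold. The calls of Scd2 and Sc5d ended without N4 replicate 2 (edgeR adjusted p = 0.063 to 0.13), where the list held 1, against 2 without N4 replicate 1.

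Of 20 glycolysis genes 3 rose and none fell: Pgk1, a kinase that yields ATP, from 70.1 and 74.6 to 257 and 279.5 CPM, the hexokinase gene Hk2 from 2.58 and 3.33 to 12.9 and 13.7 CPM, and the mutase gene Pgam1 from 24.2 and 22.2 to 57.3 and 45.5 CPM. Ldha, lactate dehydrogenase, stood at 528 and 221 CPM against 261 and 141 CPM, with N4 replicate 2 between the naive values. Slc2a1, the glucose transporter GLUT1, stood at 15.3 and 8.38 CPM against 15.3 and 8.22 CPM. Without N4 replicate 2 none of the 20 was called in edgeR, with Pgk1 and Hk2 at an adjusted p of 0.054, and without N4 replicate 1 there were 2 calls.

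Among 17 genes of amino acid transport and Myc, 2 rose, among them the spermine synthase gene Sms, and 1, Sesn1, a restrainer of mTORC1, fell. As 4.87% of all tested genes rose and 7.18% fell, the 1 decrease does not set the list apart. Sms stood at 61.5 and 50.7 CPM against 26.7 and 27.6 CPM, and Sesn1 at 1.95 and 1.87 CPM against 16.6 and 6.69 CPM. Myc, a driver of cell growth, stood at 28.5 and 6.54 CPM in N4, against 37.6 and 11.6 CPM in naive cells, with overlapping groups and a wide gap within each pair. The calls of Sms and Sesn1 ended without N4 replicate 2 (edgeR adjusted p = 0.11 to 0.12), where the list held none, against 1 without N4 replicate 1. Of 24 genes of mitochondrial import and translation none was called in edgeR, with 5 at an unadjusted p under 0.05 and 2 called by DESeq2, and their median of 0.14 turned to -0.44 with scaling by library totals. Hspd1, the chaperone HSP60, had the smallest p, at 131 and 129.7 CPM against 77 and 74.6 CPM (edgeR adjusted p = 0.071).

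Of 21 genes of the endoplasmic reticulum and its stress response 2 rose and 2 fell. With 4.87% and 7.18% of all tested genes doing so, the 2 decreases do not set the list apart. The chaperone genes Hsp90b1 and Hyou1 rose 2.23-fold and 3.7-fold, while Edem1, a degradation factor, and Ddit3, the stress transcription factor CHOP, fell. Ddit3 stood at 3.08 and 2.94 CPM in N4, against 14.7 and 10.7 CPM in naive cells (edgeR adjusted p = 0.012). Hspa5, the chaperone BiP, stood at 88 and 73.3 CPM against 47.3 and 38.5 CPM without a call (edgeR adjusted p = 0.06). The 4 calls ended without N4 replicate 1, as without N4 replicate 2 (edgeR adjusted p = 0.057 to 0.19).

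Of 18 genes of cytotoxic granules and killing 4 rose and none fell (median 0.60, or 0.094 with scaling by library totals). Gzmb, which encodes granzyme B (chr14:56258838-56262260), measured 423 and 487 CPM in N4, against 19 and 71.9 CPM in naive libraries. Gzmk, granzyme K, measured 300.1 and 327 CPM against 3.05 and 21.8 CPM. The N4 values of both were close together and above the naive ones, while naive replicate 2 exceeded replicate 1 by 3.78-fold for Gzmb and 7.14-fold for Gzmk. Serpinb9, the granzyme B inhibitor that protects the killer cell, rose from 6.86 and 10.6 to 143 and 162 CPM (edgeR adjusted p = 0.0071), and the related Serpinb6b from 5.53 and 8.65 to 34.6 and 36.9 CPM. Prf1, the pore-forming perforin, stood at 8.09 and 4.77 CPM against 7.88 and 10.2 CPM, with overlapping groups (edgeR adjusted p = 0.37). Gzma, granzyme A, overlapped too, at 759.7 and 984 CPM against 319.6 and 916 CPM. The Gzmb and Gzmk calls ended without N4 replicate 1 (edgeR adjusted p = 0.07 and 0.073) and without N4 replicate 2 (0.09 and 0.088), and the list then held 2 calls and 1 call. Natural killer cells carry the same granules. Among their markers the 5 receptor genes (Ncr1, Klrb1c, Klra4, Klra8 and Klra9) summed to 3.43 and 2.83 CPM in N4, against 94.6 and 145 CPM in naive libraries, and the adaptor genes Tyrobp and Fcer1g, which macrophages and neutrophils share, to 81.5 and 76.6 CPM, against 1534 and 4830 CPM. This split was made after the values were seen, and the part of these cells in the naive levels of granule genes was not tested.

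Of 20 tested cytokine and chemokine genes 1 rose and 1 fell, close to the 4.87% and 7.18% of all genes. Ifng, interferon gamma, stood at 117 and 39.3 CPM in N4, against 3.08 and 5.88 CPM in naive cells (edgeR adjusted p = 0.017), a call that ended without naive replicate 1 (0.053). Ccl5, a chemokine of memory T cells and natural killer cells, fell from 1057 and 5220 to 175 and 313 CPM (edgeR adjusted p = 0.038). The Ccl5 call ended with any 1 of the N4 and T4 libraries left out (edgeR adjusted p = 0.052 to 0.14). Inflammatory chemokine genes differed widely within the N4 pair: Ccl3 stood at 451 and 25.9 CPM against 7.6 and 27.7 CPM, and Ccl4 at 1197 and 50.1 CPM against 22.9 and 118 CPM. For both, N4 replicate 1 was above the naive libraries and N4 replicate 2 lay between them. Il2, the T cell growth factor, had the same pattern, at 17.3 and 3.07 CPM against 1.55 and 3.12 CPM.

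Among 22 effector transcription factor genes 4 rose and 1 fell (median 1.22). Since 4.87% of all tested genes rose and 7.18% fell, the 1 decrease does not stand out. Zbtb32, a repressor of activated lymphocytes (chr7:30589681-30598909), rose from 1.21 and 0.581 to 54.7 and 37.9 CPM (edgeR adjusted p = 0.0071) and was called with each library left out in turn. Nr4a2 and Nr4a3, nuclear receptor genes induced by T cell receptor signals, stood at 6.57 and 5.35 CPM against 0.551 and 0.933 CPM, and at 3.85 and 2.23 CPM against 0.487 and 0.52 CPM. Nr4a1 of the same family stood at 13.5 and 3.05 CPM against 14.3 and 8.04 CPM, with overlapping groups. Bhlhe40 rose to 15.6 and 14.2 CPM from 2.88 and 0.821 CPM, and Zeb2, a factor of terminal effector cells, fell to 1.71 and 2.67 CPM from 5.55 and 7.29 CPM. The 5 natural killer receptor genes summed to 3.43 and 2.83 CPM in N4, against 94.6 and 145 CPM in naive libraries. Macrophage markers summed to 22.8 and 19.2 CPM, against 2327 and 2689 CPM. The part of those cells in the Zeb2 decrease was not tested. Tbx21 (T-bet) and Irf4, which drive effector differentiation, were above both naive values without a call (edgeR adjusted p = 0.098 and 0.058), and Eomes stood at 8.56 and 10.2 CPM against 6.24 and 10.1 CPM. The Nr4a3 call ended without N4 replicate 1, naive replicate 1 or T4 replicate 2 (edgeR adjusted p = 0.052 to 0.058), and that of Bhlhe40 with either N4 library or T4 replicate 2 left out (0.054 to 0.097). The list held 2 increases without N4 replicate 1 and 3 without N4 replicate 2.

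**Figure D4:**
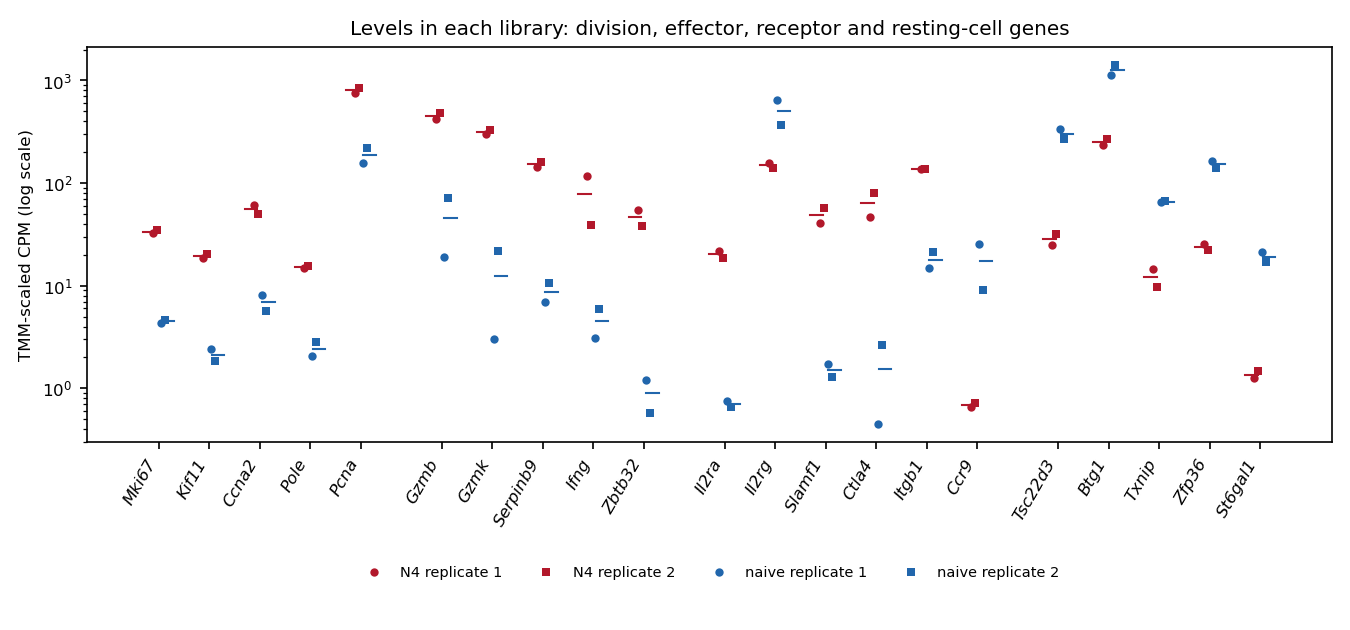
Level of 21 genes in each of the 4 libraries, in TMM-scaled CPM on a log axis, with N4 in red and naive cells in blue, replicate 1 as circles, replicate 2 as squares and short lines at the mean of each group. Division, effector, receptor and resting-cell genes stand from left to right, and Gzmk (3.05 and 21.8 CPM) and Ctla4 (0.446 and 2.63 CPM) show wide gaps between the naive libraries. The 21 were drawn from called genes, none of which has overlapping groups, so the gaps between groups follow from that choice. Of all 23003 tested genes, 12747 have groups that do not overlap.

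Receptors for cytokines changed in both directions: 3 of 23 rose and 6 fell (median -1.06), where 4.87% and 7.18% of all tested genes did. Il2ra, the interleukin 2 receptor alpha chain (chr2:11642807-11693193), rose from 0.761 and 0.661 to 21.8 and 18.8 CPM (edgeR adjusted p = 0.008) and kept its call with each library left out in turn. Il2rg, the gamma chain that this receptor shares with others, fell from 642 and 369.8 to 158 and 140.2 CPM (log2 fold change -1.76 with SE 0.33, edgeR adjusted p = 0.027). The beta chain gene Il2rb stood at 165 and 150 CPM against 89.1 and 117 CPM without a call (edgeR adjusted p = 0.16). Il18r1 and Il1rl1, receptor genes for interleukins 18 and 33, rose 2.51-fold and 3.8-fold. Ifnar2 of the type I interferon receptor fell from 27.6 and 20.4 to 7.76 and 7.4 CPM, and Ifngr1, Il4ra, Il10rb and the interleukin 6 signalling chain Il6st fell too. Summed macrophage markers stood at 22.8 and 19.2 CPM in N4, against 2327 and 2689 CPM in naive libraries. The part of those cells in these decreases was not tested. The calls of Il2rg, Ifnar2 and Il6st ended without N4 replicate 1, as without N4 replicate 2 (edgeR adjusted p = 0.076 to 0.14). Decreases in the list numbered 2 without N4 replicate 1 and 12 without naive replicate 2, and there were none without N4 replicate 2.

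Of 14 inhibitory receptor genes 4 rose and none fell (median 0.66, or 0.13 with scaling by library totals). Ctla4, which competes with CD28 for its ligands, rose from 0.446 and 2.63 to 47 and 79.5 CPM (edgeR adjusted p = 0.021). Klrc1, the inhibitory NKG2A chain, rose from 36.7 and 103 to 637 and 905 CPM, and Lag3, which binds class II molecules, from 2.32 and 1.3 to 12.9 and 9.31 CPM. Havcr2, which encodes TIM-3, rose from 1.07 and 1.55 to 5.39 and 7.7 CPM. Pdcd1, which encodes PD-1, stood at 29 and 12.3 CPM against 1.97 and 6.15 CPM without a call (edgeR adjusted p = 0.072). The calls of Klrc1, Ctla4 and Havcr2 ended without N4 replicate 2 (edgeR adjusted p = 0.063 to 0.1) and those of Lag3 and Havcr2 without N4 replicate 1 (0.056 for both), and the list then held 1 and 2 calls.

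In the costimulatory and SLAM list 5 of 14 rose and 1 fell (median 0.69, or 0.077 with scaling by library totals). The shares of all tested genes were 4.87% and 7.18%, so the 1 decrease does not stand out. Slamf1, a receptor that binds itself on a neighbouring cell, rose from 1.73 and 1.29 to 40.8 and 56.7 CPM (edgeR adjusted p = 0.0071) and was called with each library left out in turn. Sh2d1a, the adaptor SAP of SLAM receptors, rose from 117 and 206 to 489.5 and 676 CPM, and the costimulatory receptor gene Icos 3.57-fold from 25.4 and 26.2 CPM. Of the genes for the antibodies' targets, Tnfrsf4 (OX40) rose from 1.34 and 1.01 to 10.1 and 4.21 CPM (edgeR adjusted p = 0.04), and Tnfrsf9 (4-1BB) stood at 21.6 and 22.8 CPM against 47 and 21.6 CPM (edgeR adjusted p = 0.31). Tnfrsf14, a receptor of the same family, fell from 9.71 and 6.15 to 2.33 and 2.6 CPM. The calls of Icos, Cd226 and Sh2d1a ended without N4 replicate 2 (edgeR adjusted p = 0.061 to 0.12), which left 1 increase, against 2 without N4 replicate 1.

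Among 24 chemokine receptor and integrin genes 3 rose and 4 fell, where 4.87% and 7.18% of all tested genes did. Itgb1, the integrin beta 1 chain, stood at 136 and 137 CPM in N4, against 14.9 and 21.1 CPM in naive cells, and Itga4, its alpha 4 partner, at 98.1 and 111 CPM against 26 and 16.3 CPM. Cxcr6, a receptor of tissue-homing T cells, rose from 84.8 and 118 to 211 and 310.1 CPM. The decreases were Ccr9, the gut homing receptor (0.657 and 0.718 CPM against 25.4 and 9.03 CPM), Cx3cr1, a fractalkine receptor (0.72 and 1.04 CPM against 8.04 and 7.37 CPM), S1pr5, an egress receptor, and Itgae, the alpha E integrin. Cd44, an adhesion receptor used to tell experienced from naive cells, stood at 12.1 and 16.8 CPM against 12.6 and 21.4 CPM, with overlapping groups. Cx3cr1 and S1pr5 are also known from natural killer cells, whose 5 receptor genes summed to 3.43 and 2.83 CPM in N4, against 94.6 and 145 CPM in naive libraries. The part of those cells in these decreases was not tested. The Itga4 call ended without N4 replicate 2 (edgeR adjusted p = 0.054), and that of Ccr9 without N4 replicate 1 (0.056) or replicate 2 (0.059). The list held 1 increase and 2 decreases without N4 replicate 2, 2 of each without N4 replicate 1, and 5 and 7 without naive replicate 2.

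Of 18 tested genes of surface glycan synthesis 3 rose and 2 fell, where 4.87% and 7.18% of all tested genes did. St6gal1, which caps glycans with sialic acid, fell 14.1-fold, from 21.2 and 17.2 to 1.26 and 1.46 CPM (edgeR adjusted p = 0.0071), and was called with each library left out in turn. C1galt1, which starts the core of O-linked glycans, rose 2.82-fold, and Fut7, which makes selectin ligands, rose from 2.5 and 3.77 to 10.1 and 8.02 CPM. The galactosyltransferase genes moved apart, B4galt5 3.81-fold higher and B4galt1 2.27-fold lower. The calls of C1galt1, B4galt5 and B4galt1 ended without N4 replicate 1 (edgeR adjusted p = 0.068 to 0.14), where the list held 1 call.

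Decreases were frequent among genes of resting cells. Of 28 naive and quiescence genes 13 fell and none rose (median -1.37), where 7.18% of all genes fell. Tsc22d3, the glucocorticoid-induced leucine zipper gene (chrX:140539528-140600659), stood at 25.2 and 32.2 CPM in N4, against 334 and 266 CPM in naive libraries, and fell by 3.39 on the log2 scale (SE 0.28, edgeR adjusted p = 0.0071). Btg1, an antiproliferative factor, fell from 1122 and 1416 to 237 and 271 CPM, and Txnip, a brake on glucose uptake, from 65.4 and 66.6 to 14.6 and 9.72 CPM. Pdcd4, an inhibitor of translation initiation, fell from 96 and 82.7 to 22.5 and 27.7 CPM. Macrophage markers summed to 22.8 and 19.2 CPM in N4, against 2327 and 2689 CPM in naive libraries. Neutrophil markers summed to 49.4 and 40.1 CPM in N4, against 2490 and 25430 CPM. The part of those cells in the decreases of this list was not tested. Transcription factors of naive cells were uneven. Klf3 fell 4.93-fold, while Tcf7 stood at 32.7 and 26.7 CPM against 89.6 and 43.5 CPM (edgeR adjusted p = 0.1) and Klf2 at 89.1 and 81.3 CPM against 315 and 87.9 CPM, neither called. With N4 replicate 1 left out the list held 2 calls, with N4 replicate 2 left out 3, and with naive replicate 2 left out 20. The calls of Btg1 and Pdcd4 ended with either N4 library left out (edgeR adjusted p = 0.052 to 0.066).

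In the immediate early and NF-kappaB list 9 of 25 genes fell and 1, Fosb, rose (median -0.80), where 7.18% and 4.87% of all tested genes did. Zfp36, which destabilises cytokine messages, stood at 25.2 and 22.1 CPM in N4, against 165 and 140 CPM in naive cells (edgeR adjusted p = 0.0076), and its relatives Zfp36l1 and Zfp36l2 fell by 2.14 and 1.42 on the log2 scale. Fos, a subunit of AP-1, stood at 1.26 and 1.25 CPM against 3.4 and 4.38 CPM, and Dusp1, a MAP kinase phosphatase, at 4.82 and 7.09 CPM against 22.2 and 76.7 CPM. Egr1 stood at 4.75 and 3.73 CPM against 9.5 and 2.78 CPM, with overlapping groups. In N4, macrophage markers summed to 22.8 and 19.2 CPM and neutrophil markers to 49.4 and 40.1 CPM. In naive libraries these sums were 2327 and 2689 CPM, and 2490 and 25430 CPM. The part of those cells in the decreases of this list was not tested. The list held 2 decreases without N4 replicate 1 and 1 without N4 replicate 2, where the calls of Zfp36l1, Zfp36l2 and Fos ended (edgeR adjusted p = 0.066 to 0.11).

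Of 22 interferon-stimulated genes 6 fell and none rose (median -1.03): Ifit1 and Ifit3, which bind viral RNA, Oasl2, Isg20, Gbp4 and Zbp1. Ifit1 stood at 0.734 and 0.64 CPM in N4, against 6.21 and 3.68 CPM in naive cells (edgeR adjusted p = 0.013). None of the 22 was called in edgeR without N4 replicate 1 or without N4 replicate 2. Macrophages, neutrophils and dendritic cells express many of these genes too. Macrophage markers summed to 22.8 and 19.2 CPM in N4, against 2327 and 2689 CPM in naive libraries, and the part of those cells in the decreases was not tested.

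Of 22 apoptosis genes 3 rose and 3 fell, where 4.87% and 7.18% of all tested genes did. The median of 0.24 turned to -0.30 with scaling by library totals. Bcl2a1d and Bcl2a1b, prosurvival A1 genes that are near-identical copies and can share reads, stood at 535 and 681 CPM against 46.3 and 63.6 CPM, and at 542 and 683 CPM against 64.4 and 94.7 CPM. Bbc3, which encodes the death inducer PUMA, fell from 56.3 and 51.6 to 10.9 and 12.7 CPM (edgeR adjusted p = 0.0091), together with the caspase gene Casp6 and the prosurvival gene Mcl1. With either N4 library left out the list held 1 decrease.

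Of 23 genes of the cytoskeleton, S100 and annexin families 8 rose and 1, the annexin gene Anxa1, fell (median 0.85). The shares of all tested genes were 4.87% and 7.18%. Lgals1, galectin 1 (chr15:78926725-78930465), rose from 884 and 1628 to 13430 and 18260 CPM (edgeR adjusted p = 0.01). S100a4, a calcium-binding protein gene, rose from 150.3 and 425 to 3397 and 4745 CPM, and the related S100a6 and S100a10 rose 8.71-fold and 4.19-fold. The intermediate filament genes Vim and Lmnb1 rose 4.36-fold and 4.33-fold, while Actb, beta actin, stood at 2935 and 1739 CPM against 4086 and 1904 CPM, with N4 replicate 2 below both naive values. The S100a4 call ended without N4 replicate 2 (edgeR adjusted p = 0.056) and that of Lmnb1 with either N4 library left out (0.054 to 0.069). The list held 3 increases without N4 replicate 1 and 2 without N4 replicate 2.

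Few genes were near absent in naive cells and abundant in N4. Nebl, Upk1a, Depdc1a, Il2ra, Mmp10, Pla1a, Cep55 and 1 predicted gene were at 10 CPM or more in both N4 libraries and under 1 CPM in both naive libraries. Nebl, an actin-binding protein gene (chr2:17343909-17731464), stood at 35.6 and 44.3 CPM against 0.303 and 0.648 CPM. Mmp10, a secreted metalloproteinase gene (chr9:7502352-7510240), stood at 19 and 21.5 CPM and was listed at 0 in both naive libraries, so that it was at least 2152-fold higher with a floor of 3 counts per library. Pla1a, a phospholipase gene, stood at 12.6 and 18.4 CPM against 0.0751 and 0.152 CPM, and Upk1a, a membrane protein gene of the tetraspanin family, at 18.7 and 32.3 CPM against 0.827 and 0.721 CPM. Cep55, which acts in the final separation of daughter cells, rose 14.7-fold. The 7 with a name were called with each library left out in turn. Mt3, a metallothionein gene, stood at 59.6 and 98.8 CPM against 0.797 and 1.19 CPM and so fell just outside the rule. It was the 1 increase among 15 genes of zinc and iron handling, where 4.87% of all tested genes rose.

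Among genes of at least 5 CPM in both naive libraries 508 rose, and by the rule those of largest fold were Pclaf, Rpph1, Serpinb9, Cdkn3, S100a4, Lgals1, Klrc1 and Bcl2a1d. Pclaf, a PCNA-binding factor (chr9:65890237-65903266), stood at 3544 and 4472 CPM in N4, against 77.7 and 189.8 CPM in naive cells (log2 fold change 4.91 with SE 0.52, edgeR adjusted p = 0.0092). Cdkn3, a phosphatase of cyclin-dependent kinases, rose from 13.6 and 33.8 to 296 and 409 CPM. Counts listed under Rpph1, the RNA of RNase P, rose from 5.43 and 14 to 178 and 174 CPM. Its locus overlaps exons of the coding gene Ccnb1ip1, so reads of the 2 may be mixed. The libraries were made with a poly(A) kit, and these counts may not measure the level of that RNA. Naive replicate 2 lay above replicate 1 in each of these 8 genes, by 1.38-fold for Bcl2a1d to 2.83-fold for S100a4, and both stayed below N4.

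In the opposite direction 81 genes were at 10 CPM or more in both naive libraries and under 1 CPM in both N4 libraries, and many of the largest decreases were in markers of other cells of the spleen. Of 15 macrophage and monocyte markers 13 fell, and the 15 had N4 values below both naive values, with sums of 22.8 and 19.2 CPM in N4, against 2327 and 2689 CPM in naive cells. Over all 23003 tested genes the groups did not overlap for 12747, counting both directions. Lyz2, the lysozyme of macrophages and neutrophils (chr10:117277331-117282321), stood at 12.4 and 11.6 CPM against 1319 and 2322 CPM (edgeR adjusted p = 0.0071). C1qc, a complement gene of tissue macrophages (chr4:136889804-136893065), stood at 0.512 and 0.0977 CPM against 285 and 101 CPM. Adgre1, which encodes the macrophage antigen F4/80, was listed at 0 in both N4 libraries, against 11.7 and 6.46 CPM, at least 642-fold lower. Of 13 neutrophil markers 11 fell, with sums of 49.4 and 40.1 CPM in N4, against 2490 and 25430 CPM. Of 12 dendritic cell markers 8 fell, among them the class II gene H2-Aa (30.4 and 36.9 CPM against 727 and 645 CPM), and the 7 natural killer cell markers fell, such as the activating receptor gene Ncr1 (0.865 and 0.464 CPM against 25.9 and 25.4 CPM). In bulk samples, fewer cells of a type and less RNA per cell cannot be told apart. The macrophage, neutrophil, dendritic cell and natural killer lists held 6, 4, 4 and 4 decreases without N4 replicate 2 and 9, 5, 5 and 7 without N4 replicate 1.

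B cell markers fell for 8 of 11 (sums of 47.9 and 32.2 CPM in N4, against 228.6 and 154 CPM). Plasma cell markers fell for 3 of 4, and Jchain, which joins antibody units, stood at 11 and 7.99 CPM against 462 and 2578 CPM. Among immunoglobulin segments 112 of 225 fell (49.8%) and none rose in edgeR's test, while 11 of 228 T cell receptor segments rose and 11 fell (4.82% each, where 4.87% and 7.18% of all genes did). Red cell markers fell for 8 of 9 (588.1 and 494.7 CPM in N4, against 4341 and 10730 CPM), and platelet markers for 5 of 7. Without N4 replicate 2 these B cell, plasma cell, red cell and platelet lists held 1, 0, 2 and 3 decreases, and without N4 replicate 1 they held 3, 0, 4 and 4. Of 4 CD4 and regulatory T cell markers none was called in edgeR or DESeq2, and none had an unadjusted p under 0.05. Mast cell and basophil markers fell for 2 of 6 and gamma delta T cell markers for 1 of 2. Without N4 replicate 2 both of these lists held 0 decreases in edgeR, without N4 replicate 1 they held 1 and 0, and without naive replicate 1 the mast cell and basophil list held 6. Of 10 stromal and endothelial markers 2 fell and 1 rose, and with either N4 library left out none was called. That list summed to 34.3 CPM in N4 replicate 1, where the collagen gene Col1a1 stood at 28.8 CPM, and to 0.464 CPM in N4 replicate 2.

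Decreases numbered 2 of 16 in the T cell identity list and 2 of 15 in the zinc and iron list. Over all tested genes 7.18% fell, and counts of 2 do not set either list apart. The T cell identity genes that fell were Lat, an adaptor of receptor signalling, from 452 and 425 to 238 and 211 CPM, and Cd2, an adhesion receptor, from 230.5 and 112 to 60.02 and 53.9 CPM. Both calls ended with either N4 library left out (edgeR adjusted p = 0.15 to 0.24), where the list held none, and without naive replicate 2 it held 6. Cd8b1, the CD8 beta chain, stood at 187 and 164 CPM against 702 and 321 CPM without a call (edgeR adjusted p = 0.059). In the zinc and iron list, Fth1 and Ftl1, the ferritin chains, fell 4.19-fold and 3.98-fold, calls that ended with either N4 library left out (edgeR adjusted p = 0.056 to 0.067). Macrophage markers summed to 22.8 and 19.2 CPM in N4, against 2327 and 2689 CPM, and their part in the ferritin decrease was not tested.

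The naive libraries differed from each other more than the N4 libraries did. With 1 CPM added, 187 of the 12843 genes differed at least 4-fold between the naive libraries, against 37 between the N4 libraries. Replicate 1 was the higher in 40 of them (0.311%) and replicate 2 in 147 (1.14%). Those higher in replicate 2 included 7 of 13 neutrophil markers, 5 of 6 mast cell and basophil markers and 3 of 4 plasma cell markers. At least 4-fold higher there too were 2 of 18 cytotoxic granule genes and 3 of 20 cytokine and chemokine genes. No T cell identity, mitosis or replication gene reached 4-fold with 1 CPM added. Smaller gaps were present among T cell identity genes. Cd5, Zap70 and Cd247 were 3.09-fold, 3.07-fold and 2.97-fold higher in naive replicate 1, and Trac was 2.36-fold higher in replicate 2. At 2-fold, 16.1% of the 12843 genes differed. S100a8, a calcium-binding protein of neutrophils, stood at 1118 and 11640 CPM in the naive libraries, against 23 and 18 CPM in N4. Prss34, a basophil protease gene, stood at 42 and 1213 CPM against 3.92 and 3.5 CPM, and Slpi, a protease inhibitor gene, at 368 and 6400 CPM against 7.57 and 10.1 CPM. For these 3 the N4 libraries lay below both naive libraries. Their calls ended with either N4 library left out (edgeR adjusted p = 0.081 to 0.17). Summed mast cell and basophil markers stood at 69.6 and 1881 CPM in the naive libraries, against 12.6 and 8.49 CPM in N4, and their part in other genes higher in naive replicate 2 was not tested.

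In 50 of the 187 genes the N4 mean lay between the naive values. Ly6c2, a surface antigen of memory CD8 T cells and monocytes, stood at 1033 and 5371 CPM in the naive libraries, against 4208 and 5905 CPM in N4, with N4 replicate 2 above both. Cd6, a T cell adhesion receptor, stood at 59.2 and 12.9 CPM against 34.9 and 18.3 CPM, and Ctse, a cathepsin gene, at 77.3 and 17.7 CPM against 29.2 and 25.1 CPM, both between the naive values. Ccr7, the lymph node homing receptor, stood at 122 and 22 CPM against 41.9 and 8.88 CPM (edgeR adjusted p = 0.33). Lfng, a modifier of Notch receptors, stood at 160.1 and 35.2 CPM against 25.2 and 20.7 CPM, below both naive values but not called. Apoe, an apolipoprotein abundant in macrophages, fell from 126 and 23.2 to 0.797 and 0.381 CPM (edgeR adjusted p = 0.015), a call that ended with either N4 library left out (0.054 to 0.07). Of the 187 genes 93 were called lower (49.7%) and 2 higher. Of all 12843 genes of at least 1 CPM, 1320 were called lower and 1025 higher. The 187 made up 7.05% of lower calls and 0.195% of higher calls among genes of at least 1 CPM.

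**Figure D5:**
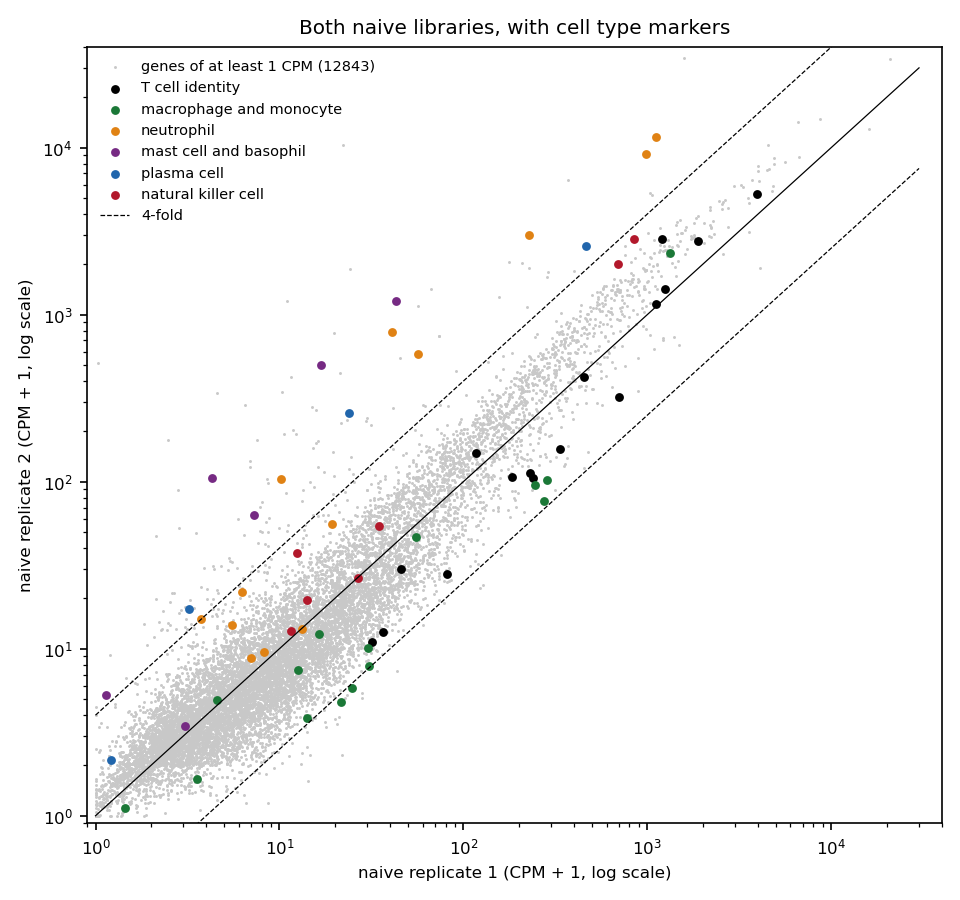
Level of 12843 genes in naive replicate 1 (x axis) and naive replicate 2 (y axis), in TMM-scaled CPM with 1 added, on log axes, with the line of equal levels and dashed lines at a 4-fold difference. Coloured points are cell type markers: neutrophil, mast cell and basophil, and plasma cell markers lie above the upper dashed line for 7 of 13, 5 of 6 and 3 of 4 genes. The black T cell identity genes lie between the dashed lines, with Cd5, Zap70, Cd247 and Trac among those off the line of equal levels.

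Transcript usage, the share of a gene's counts in each of its transcripts, changed for 84 of 10393 genes tested with edgeR's diffSpliceDGE (0.808%), and 59 of the 84 were not called for their level. In Klrd1, which encodes CD94, the partner of NKG2A, the transcript Klrd1-203 held 0.083% and 0.1% of the counts in N4, against 20.7% and 20% in naive cells. Klrd1-202 held 90.9% in both N4 libraries, against 59.2% and 58%. The adjusted p of 5.6e-07 by diffSpliceDGE in edgeR is that of the gene, and Klrd1-203 was its transcript of smallest p. Klrd1-202 by itself had an unadjusted p of 0.376 by diffSpliceDGE. Klrd1-203 and Klrd1-202 are both annotated as coding, with coding lengths of 594 and 537 bases. CD94 is also carried by natural killer cells, whose 5 receptor markers summed to 3.43 and 2.83 CPM in N4, against 94.6 and 145 CPM in naive libraries. The part of those cells in the shift was not tested. In Lef1, a transcription factor gene of naive T cells, the transcript Lef1-201, of the longest coding length listed, held 6.44% and 9.46% of counts in naive cells and was listed at 0 in both N4 libraries. Lef1-203 held the largest share, 67.6% and 65.7% in N4, against 66.8% and 74.6%. In Fip1l1, a factor of messenger RNA cleavage, Fip1l1-203 held 32.5% and 18.3% in naive cells and was listed at 0 in N4.

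In other genes called for usage the replicates differed or the transcript with the smallest p held a small share. Mbnl1, a splicing regulator, was called with Mbnl1-218 at 40.4% of counts in naive replicate 1 and listed at 0 in naive replicate 2 and both N4 libraries, while Mbnl1-201 held 28.9% and 42% in N4, against 7.88% and 13.9%. In D16Ertd472e the transcripts of smallest p were D16Ertd472e-203, listed at 0 in both N4 libraries and at 8.27% and 27.9% of counts in naive cells, and D16Ertd472e-205, at 4.82% and 8.87% in N4 and listed at 0 in naive cells. Its transcript of largest share in N4, D16Ertd472e-201, held 67.6% and 83.3%, against 34.3% and 10.8%. Sec11c, a signal peptidase subunit gene, was called through Sec11c-211, which held 1.09% and 2.44% in N4 and was listed at 0 in naive cells, while its main transcript Sec11c-201 held 62.4% to 71% in the 4 libraries. Ptprc, which encodes CD45 and is known for exon skipping after activation, was not called (adjusted p = 0.714 by diffSpliceDGE in edgeR). Its transcript Ptprc-207, of the longest coding length listed, held 0.233% and 0.57% in N4, against 8.91% and 1.7%. Usage calls numbered 24 without N4 replicate 2, and a share listed at 0 can be a failed estimate.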

How the data were processed

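Polyadenylated RNA was measured in 6 libraries, 2 each of N4, T4 and naive OT-I CD8+ T cells. Per the labels' protocols the libraries were made with an ultra-low input poly(A) kit. The authors deposited estimated counts, as unnormalized whole numbers, for 55414 genes and 142435 transcripts. Per the submitters' processing notes, which state no roles, the build was mm39 and the tools included DESeq2 1.30.1, R 4.0.5, StringTie 2.1.0, SAMtools 1.9 and STAR 2.7.1a. As to the annotation release, it was not given in the sources used here. Estimated counts may be derived from coverage, so totals need not be read numbers, and floors (3 counts per library) cover counting error only. Symbols (52081 identifiers, 94%), transcript names (138292, 97.1%) and coordinates come from GENCODE M21 on GRCm38, another build than that of the values, and promoter windows from RefSeq.

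The gene test was the quasi-likelihood test of edgeR 4.0.16 (R 4.3.3, limma 3.58.1), with TMM scaling and filterByExpr, on the means of all 3 groups, adjusted by Benjamini-Hochberg at 0.05 (common biological coefficient of variation 0.669, residual degrees of freedom 3, prior 3.09). SE is the log2 fold change over the square root of F. Usage was tested with diffSpliceDGE on 42444 transcripts. The genes, the 38 lists and the tests were chosen with earlier results of these data known. Named by rule, leaving out predicted genes, pseudogenes, receptor segments, ribosomal and mitochondrial genes and, outside lists, genes differing 4-fold between naive libraries, were up to 8 genes each that were on or off (at least 10 CPM in both libraries of a group and under 1 CPM in both of the other), raised (at least 5 CPM in both naive libraries) or lowered (at least 5 CPM in both N4 libraries), up to 4 called members of each list by smallest p, and 5 genes in each direction of the difference between naive libraries. This gave 161 genes, of which 18 overlap exons of a coding gene and may share its reads. Other list members were named for their roles after their values were seen. The procedures were tried on simulated counts, for usage with a fixed spread, large changes and few transcripts per gene, unlike these data. Those runs give no error rate for the calls here. Alternatives were DESeq2 1.42.0, other scaling and filters, a minimum fold change of 1.5, fewer libraries and a block for replicate number. Ahsp, Trgc1 and Trgc2 were not analysed here. A few genes named by rule or listed are counted but not reported by name.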

Additional observations from a re-analysis of the deposited data

How the results depend on the processing

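Calls in edgeR numbered 2772 (1120 higher and 1652 lower). They were 6102 (2506 and 3596) with the DESeq2 1.42.0 Wald test, 4257 (2868 lower) with no filter on low counts, 1044 (289 and 755) with only the N4 and naive libraries, 1791 (646 higher) with a minimum fold change of 1.5, and 2472 (695 higher and 1777 lower) with scaling by library totals. Leaving out each library in turn gave 639 to 4487 calls, 185 to 2156 higher and 454 to 2331 lower. None of the 2772 genes changed sign in any of these fits, which share libraries. Replicate numbers do not show shared mice, and deviations of same-numbered N4 and naive libraries correlated at 0.329. With a replicate block there were 3620 calls (1642 and 1978), and 35 usage calls in place of 84. Usage calls numbered 170 with transcripts of at least 1 CPM and 24 to 115 with a library left out. Genes differing between the naive libraries numbered 2070 at 2-fold, 61 at 8-fold, 97 with 5 CPM added and 448 with scaling by library totals, in place of 187. Of the named genes, 62 of 154 kept their call under every alternative. None of those called turned. With a library left out in turn, 4 that were not called did, with log2 fold changes of -3.02 to 0.11 for Ccr7, -1.52 to 0.48 for Ctse, -1.16 to 0.93 for Cd6 and -0.23 to 2.29 for Ly6c2. With scaling by library totals the medians of cytokine (-0.063), mitochondrial import (-0.44), zinc and iron (-0.38), chromatin (-0.16) and apoptosis (-0.30) genes turned. Groups of 2 limit what any of these fits can resolve.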
